A study of Homo sapiens with 24 samples.

Results

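The matrix metalloproteinases (MMPs), their tissue inhibitors (TIMPs) and the ADAM and ADAMTS proteases were examined in H1299 lung cancer cells that carry a truncated p53 isoform. The genes were taken by symbol, as MMP, TIMP, ADAM or ADAMTS followed by a number (an MMP with or without a closing letter), which gave 69 of the 60563 named genes in the count table: 24 MMPs, 4 TIMPs, 22 ADAMs and 19 ADAMTS genes. The rule used no measured value. H1299 is an established human non-small cell lung cancer line that lacks p53. The control cells carried the vector alone, the 3 Δ133p53α lines (α1, α2 and α8) overexpressed the Δ133p53α isoform from a plasmid, and the 2 Δ133p53β lines (β5 and β10) overexpressed Δ133p53β. Both isoforms lack the N-terminal part of p53 and differ at the C-terminal end. Each line is a single stable clone, so the effect of an isoform and that of a clone cannot be told apart within a line. Poly(A) RNA was sequenced in 4 libraries per line, except that 3 were used for β5 because 1 library is given to β10 by its sample label and to β5 by the name of its column. That library entered no comparison. Whether the libraries came from separate cultures is not given in the sources used here, so the p-values measure the spread between these libraries, which may be technical.

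MMPs are zinc-dependent endopeptidases that are made as inactive zymogens, and together they cleave most components of the extracellular matrix. Some are secreted and others, such as MMP14 and MMP24, sit in the cell membrane. ADAM proteases are membrane proteins, and those with an active site, such as ADAM10 and ADAM17, release the outer domains of growth factors, cytokines and receptors, a step called shedding. ADAMTS proteases are secreted and act on proteoglycans, procollagens and, in the case of ADAMTS13, von Willebrand factor. TIMPs bind the active sites of these enzymes and block them, with TIMP3 having the broadest reach towards ADAM and ADAMTS proteases. In lung cancer these genes are studied for their part in invasion.

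A library held between 21531599 and 25381731 counted reads. KRT8, KRT18 and VIM, keratins and the mesenchymal filament vimentin, had at least 11255, 12037 and 41352 reads in every library. The epithelial markers CDH1 and EPCAM had at most 1 and 5 reads, the leukocyte markers PTPRC and CD3E and the squamous markers KRT5, KRT14 and DSG3 had 0, and the fibroblast collagen gene COL1A2 had at most 1. COL1A1, the other chain of the same collagen, had 7 to 41 reads and the myeloid marker CD68 had 10 to 45, so both were present at a low level in every library. The libraries fell into 2 sets by the sign of the rank correlation between exon length and each gene's deviation from its mean over the 24 libraries (log2 CPM). Of the 24 libraries, 12 had a positive sign and 12 a negative one. Each line held both, but not in equal shares: the positive set held control 2, 3 and 4, α1 1, α2 2, 3 and 4, α8 1, 3 and 4, β5 1 and β10 1. Where the set as a term changes the call of a gene in a line, that is given with the gene. Since the sets were defined from these reads, differences between them are described and not tested. In bulk RNA, fewer cells of a kind and less RNA per cell cannot be told apart.

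The promoters of 39 of the 69 genes were present in the RefSeq table of GRCh38.p14. Each was given as the 300 bases from 250 before to 50 after a start used there. They are shown here for 2 genes that fell, 1 that rose and 1 of the MMP genes on chromosome 11 that were nearly silent, because the letters of the last differ from those of the others. Capitals mark GC boxes (GGGCGG or its reverse complement CCGCCC), the AP-1 motif TGANTCA and the TATA motif TATAAA, the last on either strand. ADAMTS18 lies at chr16:77434985-77435284, ADAM8 at chr10:133276819-133277118 and MMP10 at chr11:102780579-102780878, all on the minus strand, and ADAMTS13 lies at chr9:133422117-133422416 on the plus strand. By the GENCODE annotation ADAMTS13 starts at chr9:133414358, so its window lies inside the annotated gene and not at that start.
ADAMTS18: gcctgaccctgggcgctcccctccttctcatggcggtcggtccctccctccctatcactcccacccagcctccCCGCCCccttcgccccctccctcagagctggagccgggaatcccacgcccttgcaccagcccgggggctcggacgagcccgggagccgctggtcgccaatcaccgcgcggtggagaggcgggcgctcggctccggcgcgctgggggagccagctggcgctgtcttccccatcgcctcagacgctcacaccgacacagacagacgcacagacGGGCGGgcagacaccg
ADAMTS13: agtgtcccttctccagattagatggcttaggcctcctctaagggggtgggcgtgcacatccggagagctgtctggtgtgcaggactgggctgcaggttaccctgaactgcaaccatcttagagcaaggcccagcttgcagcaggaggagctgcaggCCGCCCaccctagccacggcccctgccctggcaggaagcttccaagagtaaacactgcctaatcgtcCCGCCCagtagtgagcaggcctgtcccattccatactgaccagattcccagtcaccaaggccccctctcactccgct
ADAM8: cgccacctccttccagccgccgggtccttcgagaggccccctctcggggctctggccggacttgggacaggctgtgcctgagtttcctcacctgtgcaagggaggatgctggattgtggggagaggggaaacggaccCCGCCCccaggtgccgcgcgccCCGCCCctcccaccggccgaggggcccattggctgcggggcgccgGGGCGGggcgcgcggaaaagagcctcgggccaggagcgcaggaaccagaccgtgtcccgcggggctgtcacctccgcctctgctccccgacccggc
MMP10: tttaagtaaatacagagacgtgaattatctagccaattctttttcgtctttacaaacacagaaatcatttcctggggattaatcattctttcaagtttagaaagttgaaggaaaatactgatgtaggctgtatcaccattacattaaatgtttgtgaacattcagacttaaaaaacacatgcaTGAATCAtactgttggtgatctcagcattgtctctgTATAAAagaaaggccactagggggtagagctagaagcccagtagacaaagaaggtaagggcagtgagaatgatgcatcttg

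The ADAM8, ADAMTS13 and ADAMTS18 promoters held 3, 2 and 2 GC boxes and no TATA motif, and the MMP10 promoter held 1 AP-1 motif, 1 TATA motif and no GC box. A GC box was present in 26 of the 39 member promoters, against 44.95% of the 35116 promoters in the table. An AP-1 motif was present in 4 of the 39 (MMP7, MMP10, MMP20 and ADAMTS12), against 7.71% of all. The TATA motif was found in 8 of the 39 and in 11.53% of all. No member promoter held a p53 half-site, which 6.63% of all promoters did, and this says only that these letters are not in these windows. The 22 promoters of members that passed the filter on low counts had a median GC content of 71.8% and a median of 29 CpG dinucleotides. The 17 promoters of the members that did not pass had 53.7% and 12, and all promoters had 58.7% and 14.

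Of the 69 genes, 35 had enough reads to be tested: 11 MMPs, 2 TIMPs, 11 ADAMs and 11 ADAMTS genes. Among the other 34, 24 never had more than 3 reads in a library, the number that a count of 0 allows, and 9 of those had 0 reads in every library. TIMP3 was among these 9, with ADAM2, ADAM5, ADAM6, ADAM18, ADAM30, ADAM33, MMP26 and MMP27. TIMP4 had 1 read in all 24 libraries together. The remaining 10 untested genes had more than 3 reads in at least 1 library (MMP1, MMP2, MMP10, MMP20, ADAM28, ADAM32, ADAMTS8, ADAMTS12, ADAMTS14 and ADAMTS17). MMP23A and MMP23B are near-identical copies, so their 14 and 10 reads are uncertain.

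The nearly silent MMP genes included neighbours on chromosome 11. Within chr11:102520508-102955732, by the GENCODE annotation of GRCh38, lie 9 members: MMP7, MMP20, MMP27, MMP8, MMP10, MMP1, MMP3, MMP12 and MMP13. Of these, which hold the collagenase and stromelysin genes, MMP13 (collagenase 3) alone was tested, with 978 reads over 24 libraries. MMP27 had 0 reads, MMP7, MMP8 and MMP12 had 2 each, MMP3 had 15 and MMP20 had 16. The promoters of 5 of the 9 were in the table, with a GC content between 33.3% and 44.3% and 2 to 4 CpG dinucleotides each. A similar contrast was seen at chr8:38996754-39838227, where 5 ADAM genes are neighbours. ADAM9 had 60246 reads and was the member with the second highest total, whereas ADAM5, ADAM18 and ADAM2 had 0 and ADAM32 had 65. On chromosome 21, ADAMTS1 had 882 reads and its neighbour ADAMTS5 had 1.

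Levels of different genes were compared as CPM (reads scaled to library size) per kilobase of summed exon length, averaged over 23 libraries. TIMP1 had the highest level, at 96.0 CPM per kb, followed by ADAM15 at 11.99 and TIMP2 at 11.8. Among the MMPs, MMP14, the membrane enzyme that activates proMMP2, had 8.37 CPM per kb, MMP24 had 3.47 and MMP17 had 1.74. Among the ADAMs, ADAM9 had 6.19, ADAM19 had 3.85, ADAM10 had 3.24 and ADAM17 had 2.87 CPM per kb. The ADAMTS genes were lower, with ADAMTS3, a procollagen N-proteinase, the highest at 1.05 CPM per kb and ADAMTS6 next at 0.236. ADAMTS9 was the lowest tested member, at 0.0163. The plot of level by member sets these 35 values side by side. The tested inhibitors and some membrane-bound enzymes lie at its upper end. Other membrane-bound members lie lower, such as ADAM8 at 0.310, MMP15 at 0.290 and MMP25 at 0.134 CPM per kb.

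**Figure D1:**
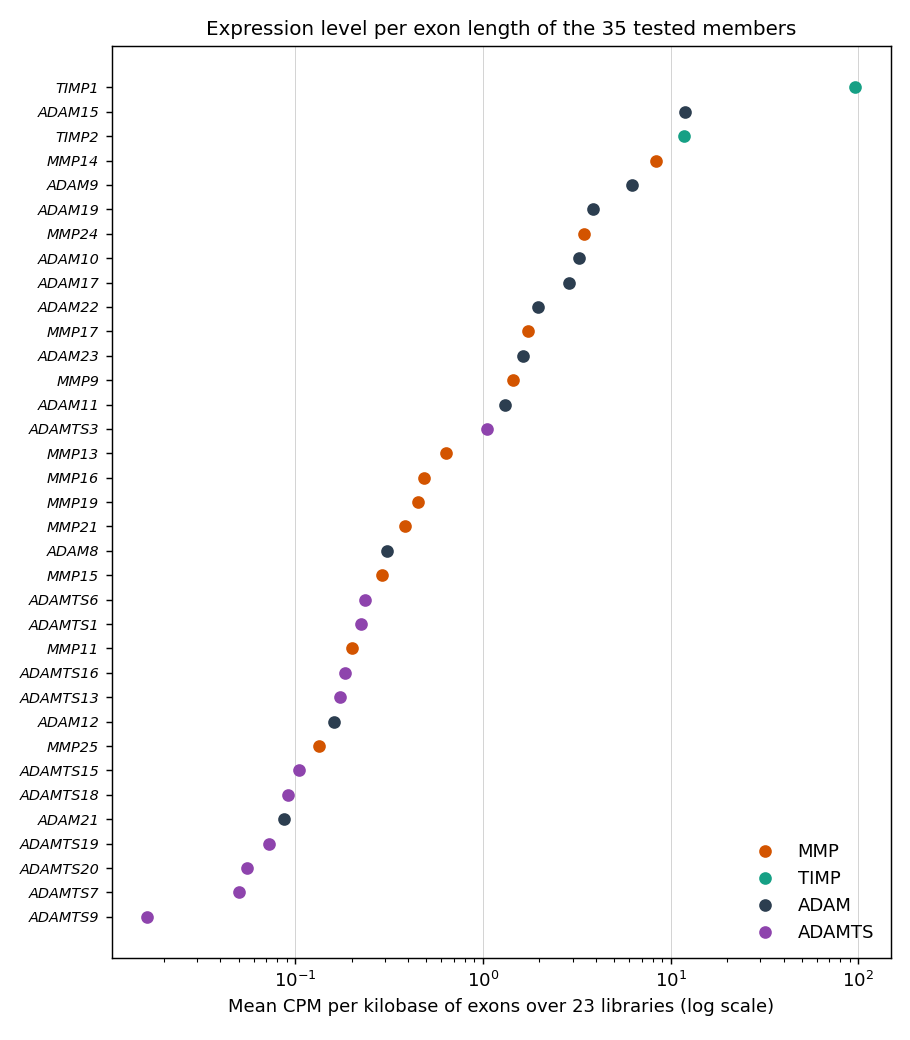
Mean CPM per kilobase of exons (horizontal log axis) of the 35 tested members over 23 libraries, 1 point per gene, coloured by family. TIMP1 at 96.0 lies furthest right, above ADAM15 at 11.99 and TIMP2 at 11.8, and ADAMTS9 at 0.0163 lies furthest left.

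Each line was compared with the vector control. Calls needed an adjusted p below 0.05 and a log2 fold change of 1.5 or more, up or down, which are the thresholds of the study's methods. Of the 35 tested members, 2 were called in α1 against 2.58% of all 18295 tested genes, 2 in α2 against 2.81%, and 3 in α8 against 2.53%. In β5, 4 were called against 4.27% of all genes, and in β10, 6 were called against 4.73%. The mean of the Δ133p53α lines gave 4 calls against 2.81% of all genes, and the mean of the Δ133p53β lines gave 6 against 5.36%. With 35 genes the shares called, from 5.71% in α1 and α2 to 17.1% in β10, rest on a few genes each. All these comparisons share the 4 control libraries. The median log2 fold change of the members was -0.31 in α1, -0.29 in α2, -0.35 in α8, -0.61 in β5 and -0.64 in β10, beside -0.08, 0.01, -0.02, -0.03 and -0.05 for all tested genes. It was -0.26 in the Δ133p53α mean and -0.62 in the Δ133p53β mean, beside -0.02 and -0.04. With the library set as a term these member medians were -0.21, -0.34, -0.37, -0.54 and -0.34.

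In at least 1 line or isoform mean against control, 9 members were called: ADAMTS1, ADAMTS7, ADAMTS9, ADAMTS13, ADAMTS15, ADAMTS18, ADAM8, ADAM11 and ADAM12. These are all ADAMTS and ADAM genes: no MMP and no TIMP was called against control in this fit. Of the 9, ADAMTS18, ADAMTS9 and ADAM12 were called higher and the other 6 lower.

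ADAMTS1 (chr21:26835755-26845409 on the minus strand of GRCh38), a secreted protease that cleaves the proteoglycans aggrecan and versican, was lower in the Δ133p53α lines. Control libraries 1 to 4 held 57, 135, 35 and 153 reads, and α2 held 1, 6, 2 and 1. The 4 α1 libraries held 40, 18, 12 and 14 reads, and the α8 libraries held 29, 8, 19 and 33. Every α2 library lay far below every control library. The highest libraries of α1 and α8 overlapped the lowest control library once scaled to library size, at 1.65 and 1.38 CPM against 1.31. In β5 the reads were 48, 26 and 25 and in β10 79, 30, 22 and 84, within or near the range of control. ADAMTS1 fell by 5.10 ± 0.67 (SE) on the log2 scale in α2 (adjusted p = 4.47e-05), by 1.98 ± 0.54 in α1 (adjusted p = 0.0361) and by 2.06 ± 0.54 in α8 (adjusted p = 0.029). The mean of the Δ133p53α lines gave -3.05 ± 0.41 (adjusted p = 2.98e-05). The log2 fold changes in β5 and β10 were -1.43 and -0.77, with adjusted p = 0.146 and 0.328. The calls in α1 and α8 were each lost when control 2 or control 4 was left out, and without α1 2, 3 or 4 and α8 1, 2 or 3 in their own line. Both were lost in fits of only the groups compared and with the disputed library in β10 (adjusted p = 0.0655 and 0.0617), and that in α1 also with it in β5 (adjusted p = 0.0553) and by limma voom. The call in α2 held without any 1 library.

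ADAMTS18, whose product has been studied as a candidate tumor suppressor, was higher in the lines. Control libraries held 2, 0, 2 and 4 reads. The reads were 7, 26, 17 and 8 in α2, 25, 5, 19 and 24 in α8, and 28, 21 and 27 in β5. In β10 they were 42, 10, 4 and 10, and in α1 22, 8, 7 and 1. All libraries of α2, α8 and β5 held more reads than any control library, the lowest β10 library equalled the highest control library, and 1 α1 library lay within the range of control. ADAMTS18 rose by 2.89 ± 0.81 (SE) on the log2 scale in α2 (adjusted p = 0.0391), 3.18 ± 0.80 in α8 (adjusted p = 0.0231), 3.72 ± 0.83 in β5 (adjusted p = 0.00654) and 3.05 ± 0.81 in β10 (adjusted p = 0.0188). In α1 the value was 2.39 (adjusted p = 0.0956), and with the library set as a term it was 2.92 ± 0.68 (adjusted p = 0.00953). Since control held so few reads, the fitted sizes depend on how 0 is treated. No control library reached the minimum of the filter on low counts, which ADAMTS18 passed through 11 libraries of the lines. A gene kept only through the lines is selected for being higher there, so its calls are given as a description. ADAMTS18 was also higher in the positive set, by 2.54-fold within lines, and 3 of the 4 control libraries belong to that set. The calls in α2 and α8 were each lost without control 1, 2 or 3 or without either of 2 libraries of the line itself (α2 2 and 3, α8 1 and 4), and the call in β10 without control 2, control 3 or β10 1. The call in β5 held without any 1 library.

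ADAMTS9, which cleaves versican and aggrecan, was called against control in α1 alone among the lines. It passed the filter on low counts only through 3 libraries, α1 1, α1 2 and α8 1, and no control library reached the minimum. A gene kept in this way had to differ, so its calls are given as a description. Control libraries held 0, 1, 2 and 0 reads and α1 libraries 20, 14, 6 and 3. The α8 libraries held 12, 4, 6 and 7 reads, and those of α2 held 0, 8, 3 and 0. No library of β5 or β10 held more than 2. All α1 and α8 libraries lay above all control libraries. With control at or under 3 reads in every library, α1 was at least 4.22-fold higher than control (adjusted p = 0.023) and α8 at least 2.58-fold higher (adjusted p = 0.0823), which passed with the library set as a term (adjusted p = 0.0294). The call in α1 was lost when control 1, 2 or 4 was left out, and the gene was not tested without α1 1, α1 2 or α8 1. ADAMTS9 overlaps ADAMTS9-AS1 on the opposite strand over 1.63% of its exon bases.

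ADAMTS13, the protease of von Willebrand factor, was lower in both Δ133p53β lines and in α8. Control libraries held 64, 33, 187 and 27 reads, β5 libraries 2, 3 and 3, and β10 libraries 1, 6, 3 and 5. No β library came near the lowest control library. The reads were 9, 8, 16 and 30 in α1, 16, 7, 42 and 21 in α2, and 4, 27, 10 and 15 in α8, with the highest library of each reaching the lower control libraries. With every library at or under 3 reads, β5 was at least 22.4-fold lower than control (adjusted p = 0.00181), and at least 12.4-fold lower without control 3. In β10 the log2 fold change was -4.12 ± 0.74 (SE; adjusted p = 0.000903), and the mean of the Δ133p53β lines gave -4.36 ± 0.62 (adjusted p = 4.39e-05). For the mean of the Δ133p53α lines the value was -1.97 ± 0.46 (adjusted p = 0.00947) and for α8 -2.30 ± 0.65 (adjusted p = 0.0438). Control 3 was far above the other control libraries. Without it, ADAMTS13 was -3.49 ± 0.58 for the Δ133p53β mean (adjusted p = 0.000491), and the calls in the Δ133p53α mean (-1.09, adjusted p = 0.271) and α8 (-1.44, adjusted p = 0.306) were lost. The α8 call was lost in 13 of the 23 omissions of 1 library in all, in the fit of only the groups compared, under the replicate block and with the disputed library in β5 (adjusted p = 0.0602). With the library set as a term ADAMTS13 was called lower in all 5 lines, at -2.35 ± 0.64 in α1 (adjusted p = 0.0287), -1.70 ± 0.56 in α2 (adjusted p = 0.048) and -2.44 ± 0.59 in α8 (adjusted p = 0.00876), and among the clones (adjusted p = 0.0319).

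ADAM8, a sheddase first described in leukocytes, and ADAM11, a member without a protease active site that is best known from the nervous system, were lower in both Δ133p53β lines. ADAM11 lies at chr17:44758988-44781846 on the plus strand of GRCh38. For ADAM8, control libraries had 2.72, 2.08, 2.92 and 2.07 CPM, β5 libraries 0.555, 0.637 and 0.458, and β10 libraries 0.580, 0.871, 1.10 and 0.540. For ADAM11, control libraries had 12.2, 10.5, 13.5 and 8.49 CPM, β5 libraries 3.55, 3.78 and 4.12, and β10 libraries 2.36, 3.78, 4.47 and 3.49. For both genes all β libraries lay below all control libraries. ADAM8 fell by 2.15 ± 0.43 (SE) on the log2 scale in β5 (adjusted p = 0.00283) and by 1.71 ± 0.38 in β10 (adjusted p = 0.00548). ADAM11 fell by 1.56 ± 0.29 in β5 (adjusted p = 0.00148) and by 1.71 ± 0.26 in β10 (adjusted p = 0.000188). In the Δ133p53α lines ADAM8 was not called, with log2 fold changes from -1.17 in α8 to -0.12 in α1. ADAM11 passed the adjusted p in α8, at -1.03 (adjusted p = 0.0201), without reaching the fold threshold. The ADAM11 call in β5 was lost without control 3 (-1.45, adjusted p = 0.00671), without β5 1, and with the disputed library counted in β5 (-1.35). The call in β10 was lost with that library counted in β10 (-1.47, adjusted p = 0.000662).

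ADAMTS7 and ADAMTS15, a cartilage and vessel wall protease and a versican-cleaving protease, were called lower in β10 at low counts. For ADAMTS7, control libraries held 15, 10, 25 and 11 reads and β10 libraries 2, 5, 4 and 0. For ADAMTS15, control libraries held 23, 24, 13 and 20 reads and β10 libraries 8, 0, 7 and 3. The β10 and control libraries did not overlap in either gene. The β5 libraries held 5, 7 and 4 reads of ADAMTS7, below all control libraries, and 7, 4 and 11 of ADAMTS15, where the highest (0.504 CPM) lay just above control 3 (0.486 CPM). ADAMTS7 fell by 2.22 ± 0.62 (SE) on the log2 scale in β10 (adjusted p = 0.0256), a call that was lost without control 3 (adjusted p = 0.105), β10 1 or β10 4. ADAMTS15 fell by 1.99 ± 0.61 (adjusted p = 0.0419). This call was kept in only 9 of the 23 omissions of 1 library, and was lost without any of the 4 control libraries. It was also lost with no filter on low counts, in the fit of only the groups compared and under the replicate block. In β5 the log2 fold changes were -1.33 for ADAMTS7 and -1.29 for ADAMTS15, neither called. ADAMTS7 has pseudogene copies, and the counting of reads that match several places is not given in the sources used here.

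ADAM12, a sheddase that is abundant in placenta and many carcinomas, was higher in the mean of the Δ133p53α lines. Control libraries had 0.384, 1.15, 0.449 and 0.676 CPM. The α2 libraries had 0.800, 4.04, 1.77 and 2.59 CPM and the α8 libraries 3.23, 1.16, 1.86 and 2.67. Control 2, the highest control library, lay within the α2 range and just below the lowest α8 library. ADAM12 was 2.34-fold higher in the positive set within lines, and this set order held in all 6 lines. The Δ133p53α mean gave 1.52 ± 0.46 (SE; adjusted p = 0.0473) on the log2 scale, close to both thresholds, and 12 of the 23 omissions of 1 library ended the call. With the set as a term ADAM12 was called in α1, α2, α8 and β5, at 1.63 ± 0.36, 1.71 ± 0.34, 1.72 ± 0.34 and 1.84 ± 0.37 (adjusted p between 0.00135 and 0.00631). In β10 it passed the adjusted p at 1.49 ± 0.36 (adjusted p = 0.0065), just short of the fold threshold.

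With the library set as a term, 5 members were called in each of α1, α2 and α8, beside 2.85%, 3.69% and 3.45% of all genes. In β5, 9 were called beside 6.27% of all genes, and in β10, 7 beside 5.21%. The members called there and in no comparison without the term were ADAMTS20 (higher in α2, β5 and β10), MMP11, MMP17 and MMP19 (lower in β5). ADAMTS20, a protease that cleaves versican, rose by 2.19 ± 0.61 (SE) in α2, 2.79 ± 0.69 in β5 and 2.32 ± 0.66 in β10 on the log2 scale in that fit. Its control libraries held 1, 2, 10 and 2 reads and those of α2 4, 16, 28 and 19. The β5 libraries held 19, 10 and 10 and the β10 libraries 29, 3, 0 and 11. ADAMTS20 passed the filter on low counts through 10 libraries, of which 1 was a control library, so these values are a description. MMP11 (stromelysin 3) had -2.40 ± 0.70, MMP17, a membrane-anchored enzyme, -1.74 ± 0.38 and MMP19 -1.55 ± 0.30 in β5. In the fit without the term the β5 values of these 3 were -1.87, -1.24 and -1.36. In the plot of fold changes by line, the term narrowed most of the errors of the 9 members called without it and turned no direction among their calls.

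**Figure D2:**
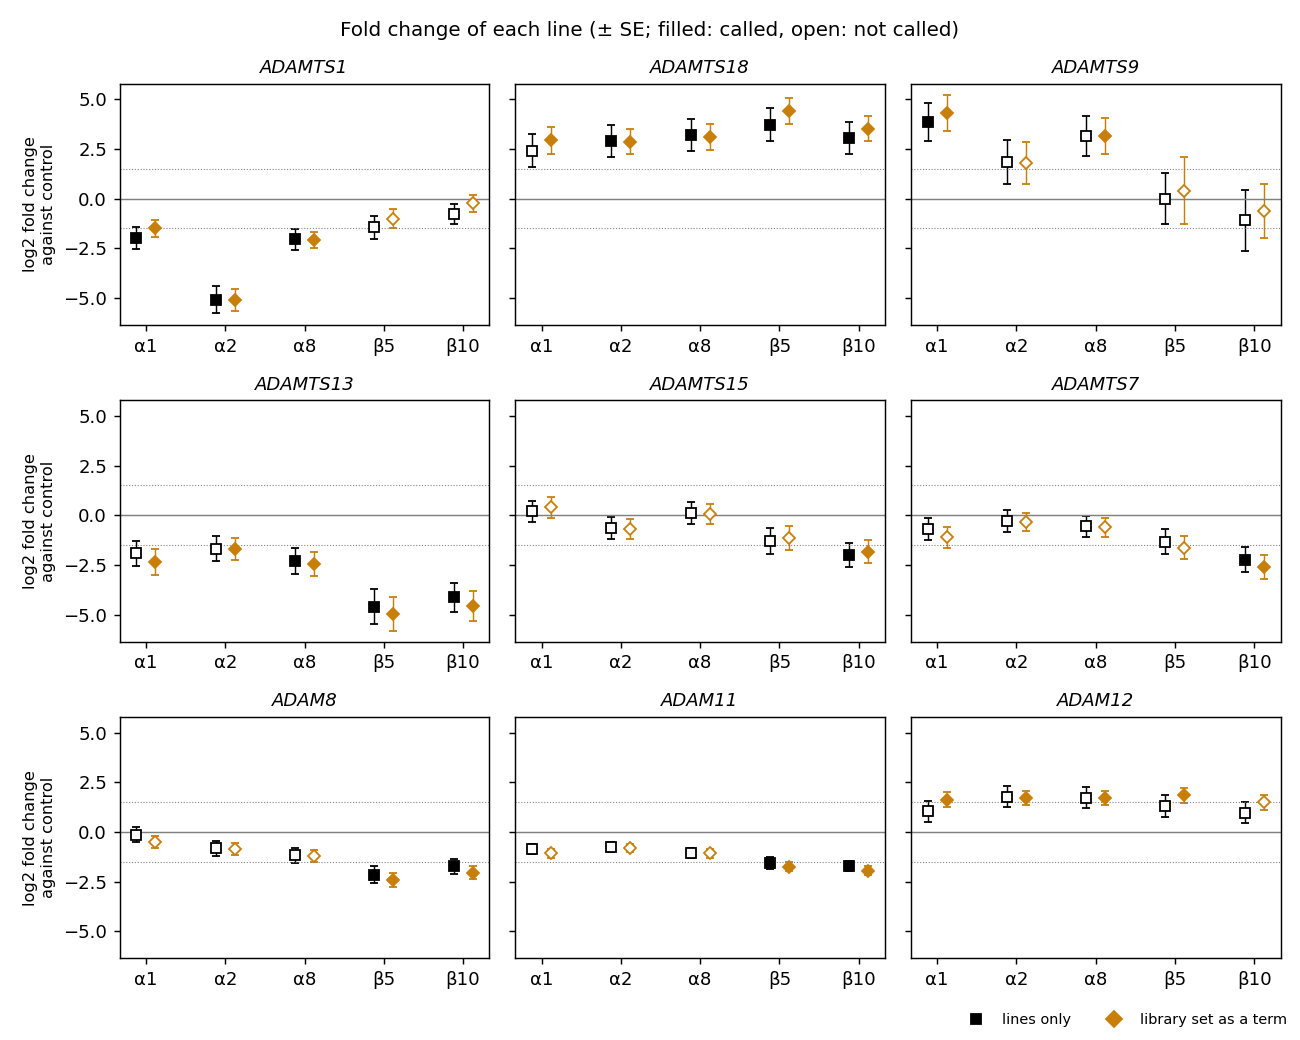
Log2 fold change against control (vertical axis, ± SE) of the 9 members called in the lines-only fit, in each of the 5 lines, without (squares) and with (diamonds) the library set as a term. Filled symbols were called, and dotted lines mark 1.5 in either direction. ADAMTS1 reaches -5.10 in α2, and ADAMTS13 lies lower in β5 and β10 than in the α lines.

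The isoforms were then compared directly, as the mean of β5 and β10 against the mean of α1, α2 and α8. As each isoform is represented by a few clones and the p-values rest on the spread between libraries, isoform and clone cannot be told apart. Of the 35 members, 4 were called, against 1.39% of all tested genes, and the member median was -0.27 against -0.01 for all. ADAMTS13 was lower in the Δ133p53β lines by 2.40 ± 0.55 (SE; adjusted p = 0.0108) on the log2 scale. ADAMTS9 had a fitted difference of -3.49 ± 0.81 (adjusted p = 0.0119), which is a description, since no β library held more than 2 reads and the gene entered the test only through its high α libraries. ADAMTS15 had a difference of -1.53 ± 0.42 (adjusted p = 0.0372). ADAMTS1 was higher in the Δ133p53β lines, by 1.94 ± 0.37 (adjusted p = 0.00294). By reads, the β libraries in the fit held 22 to 84 for ADAMTS1, and α libraries 1 to 40. The disputed library, a Δ133p53β library by both its label and its column, held 5, within the α range. With it in β5 the ADAMTS1 difference was 1.78 (adjusted p = 0.00704), and with it in β10 it was 1.81 (adjusted p = 0.011). ADAM8, ADAM11 and MMP14 passed the adjusted p, at -1.23 (adjusted p = 0.00795), -0.75 (adjusted p = 0.015) and -0.69 (adjusted p = 0.0399), without reaching the fold threshold. With the set as a term, 3 of the 4 were called, beside 1.79% of all genes, and ADAMTS15 (-1.41) was not, nor was it in the Δ133p53β mean against control (-1.48). Its call between the isoforms was also lost in 10 of the 23 omissions of 1 library, among them each of the 3 β5 libraries.

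Differences among the 5 clones, whatever their isoform, were called for 4 of the 35 members, against 2.4% of all tested genes. They were ADAMTS1, ADAMTS9, ADAM8 and MMP9 (adjusted p = 0.00514, 0.0289, 0.0209 and 0.0112). MMP9, gelatinase B, was high in α1: its libraries held 91, 196, 175 and 340 reads, against 40, 46, 15 and 42 in α2 and 18, 67, 15 and 17 in α8. The β5 libraries held 30, 22 and 24 reads, the β10 libraries 24, 35, 148 and 17, and the control libraries 92, 33, 81 and 39. The clones differed by up to 3.18 in log2, between α1 and the lowest clone, and all α1 libraries lay above all other libraries of the clones except the third of β10. Against control, α1 had a log2 fold change of 2.08 (adjusted p = 0.0696) and was not called, while DESeq2, limma voom and the fit of only the groups compared called it. MMP9 was also higher in the negative set, which held 3 of the 4 α1 libraries, and with the set as a term the α1 value was 1.41 (adjusted p = 0.134) while the difference among the clones stayed called (adjusted p = 0.00455). SLC12A5-AS1 overlaps 18.4% of the exon bases of MMP9 on the opposite strand, and the strand setting of the counting is not given in the sources used here.

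MMP2 (gelatinase A) and MMP1 (interstitial collagenase) had too few reads to be tested, so their reads are given without a test. MMP2 had 18, 2, 4 and 0 reads in control and 4, 34, 1 and 1 in α8. It had 0 reads in all 15 libraries of α1, α2, β5 and β10, each of which allows up to 3. MMP1 had 20, 5, 74 and 3 reads in control, 1, 1 and 2 in β5 and between 1 and 10 in every other library of the clones. MMP10 (stromelysin 2) had 7, 3, 27 and 4 reads in control, 0 in every α2 library and at most 4 elsewhere. Control 3 held most of the control reads of MMP1 and MMP10, and likewise of MMP11 (37, 8, 96 and 13 reads). ADAMTS12 had 1, 5, 2 and 3 reads in control and 0 in each library of the 5 lines. Without the filter on low counts, MMP1, MMP10 and ADAMTS12 were called lower in the means of both isoforms, and MMP2 in that of the Δ133p53β lines. By line, MMP10 was also called in α2 and MMP1 in β5, and MMP2 was called among the clones.

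Among the inhibitors, TIMP1 levels followed the library sets. TIMP1 had 185, 83.5, 126 and 88.7 CPM in control, 74.8, 179, 251 and 305 in α1, and 69.8, 183, 348 and 112 in β10. In each of the 6 lines all positive libraries lay below all negative ones, at 0.431 of their level, and the ranges of the lines overlapped. Its log2 fold changes ran from -0.35 in α8 to 0.70 in α1, with adjusted p between 0.331 and 0.971. TIMP2, which also takes part in the activation of MMP2 by MMP14, had 108, 100.02, 140.08 and 73.2 CPM in control, 64.2, 55.9 and 51.4 in β5, and 76.4, 55.4, 41.4 and 51.1 in β10. All β5 libraries and 3 of the 4 β10 libraries lay below every control library, and the fourth lay above the lowest one. TIMP2 passed the adjusted p in β10 and in the Δ133p53β mean, at -0.95 (adjusted p = 0.032) and -0.92 (adjusted p = 0.0117), without reaching the fold threshold.

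MMP14 had 42.7, 24.1, 63.5 and 23.2 CPM in control and 38.4 ± 19.0 (SD, n = 4) on average. The means were 57.0 ± 8.98 in α1, 48.6 ± 4.94 in α2 and 30.2 ± 9.90 in α8 (n = 4 each). They were 24.6 ± 4.35 (n = 3) in β5 and 30.0 ± 5.90 (n = 4) in β10. No line differed from control by the test (adjusted p between 0.215 and 0.663), and the control libraries spanned most of the range of the lines. MMP24, which MMP24OS overlaps over 18.4% of its exon bases, had 24.9 CPM in control 1 and 6.38, 7.56 and 6.72 in the other control libraries. ADAM15 had 63.7, 43.6, 46.1 and 43.6 CPM in control and 70.0, 118, 148 and 167 in α1. All α1 libraries lay above all control libraries, and ADAM15 passed the adjusted p in α1 at 1.31 (adjusted p = 0.0491), short of the fold threshold. ADAM15 was also lower in the positive set, at 0.544 of the negative level within lines, an order that held in all 6 lines. The negative set held α1 2, 3 and 4 but only control 1, so α1 and control differ in their shares of the sets. MMP15, a membrane-type enzyme, had between 0.921 and 1.37 CPM on average in each of the 6 lines, with adjusted p between 0.6 and 0.997.

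**Figure D3:**
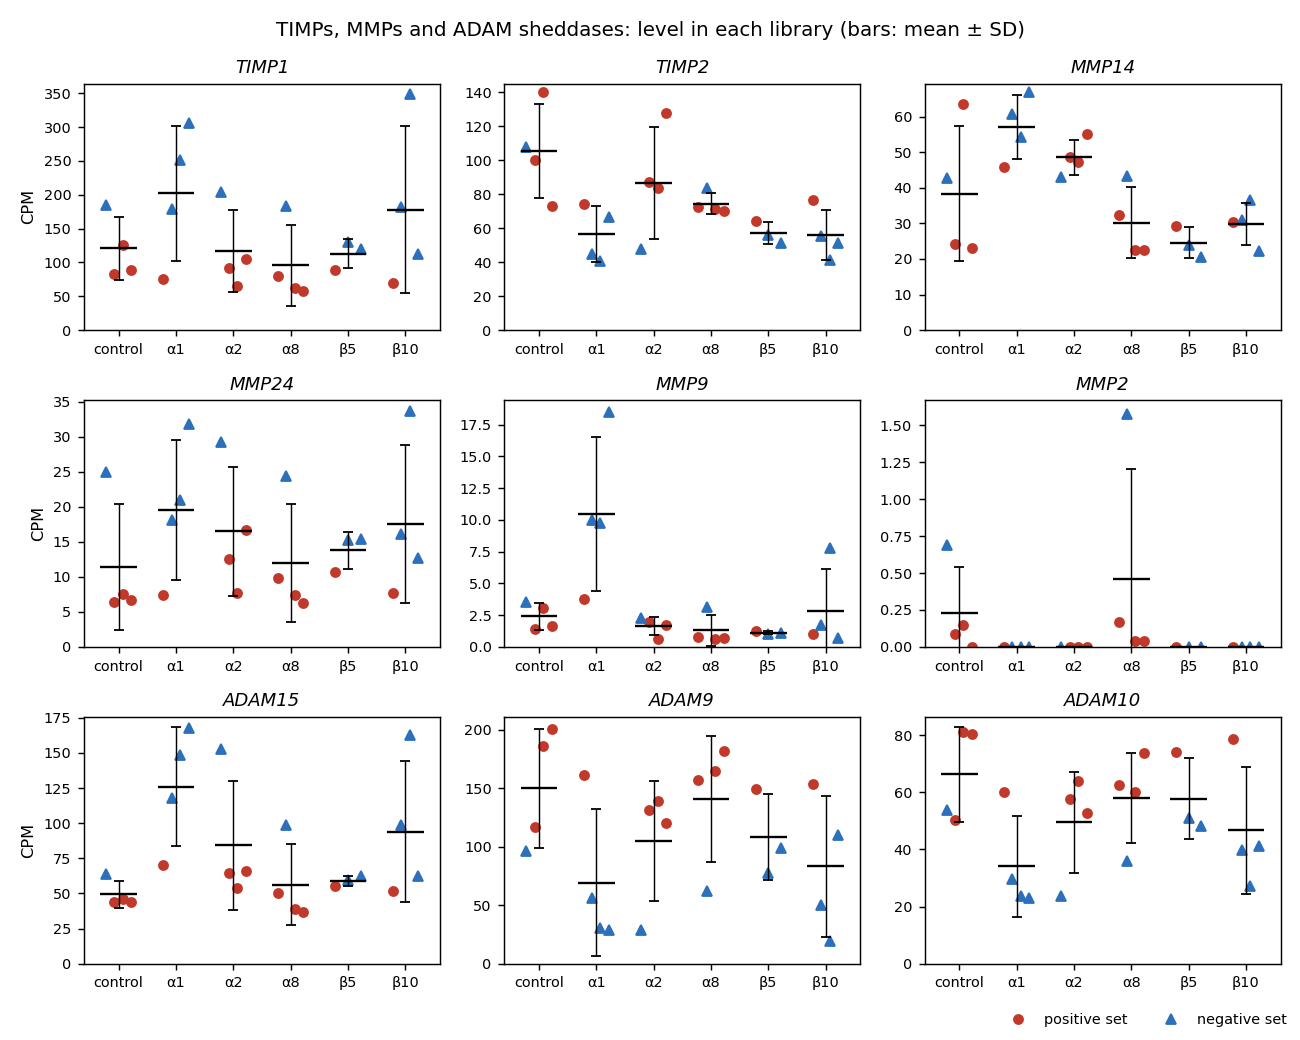
CPM in each library, by line, of TIMP1, TIMP2, 4 MMPs and 3 ADAM genes. Points are libraries (circles: positive set, triangles: negative set), the bar is the mean and the whisker the SD. For TIMP1, MMP24 and ADAM15 every triangle lies above every circle of its line, for ADAM9 every circle lies above every triangle, and MMP9 is highest in α1.

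ADAM10 and ADAM17, the main sheddases of Notch receptors and of tumor necrosis factor, had the same direction of set difference as ADAM9. ADAM9 had 96.5, 117, 186 and 200.4 CPM in control, 161, 56.6, 30.9 and 28.6 in α1, and 154, 50.01, 19.4 and 110.2 in β10. The single positive library of α1 and of β10 was the highest of its line in both. ADAM9 was 2.74-fold higher in the positive set, ADAM10 1.91-fold and ADAM17 1.76-fold, within lines. None of these 3 was called in any comparison, with log2 fold changes against control from -1.13 (ADAM9 in α1, adjusted p = 0.231) to -0.11 (ADAM9 in α8, adjusted p = 0.979). IAH1 overlaps 10.3% of the exon bases of ADAM17 on the opposite strand. ADAM19 and ADAMTS3 behaved alike, at 1.99-fold and 2.44-fold higher in the positive set, and were not called in any comparison either.

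The sets were defined by the correlation with exon length over all genes, so a positive relation between the set difference and exon length is fixed by that definition. As a description, the rank correlation within lines was 0.634 over the 35 tested members and 0.328 over the 18038 tested genes with a known exon length, all from the same 23 libraries. Of the 35 members, 9 lay higher in all positive than in all negative libraries of each of the 6 lines, and 3 lay lower (TIMP1, MMP24 and ADAM15), beside 15.8% and 17% of all tested genes. The 9 were ADAM9, ADAM12, ADAM17, ADAM19, ADAM23, ADAMTS3, ADAMTS6, ADAMTS16 and ADAMTS20. The median absolute log2 difference between the sets was 0.878 over the members and 0.593 over all tested genes. TIMP1, with the shortest exons at 1.45 kb, and ADAM9, with the longest at 17.7 kb, were at opposite ends of the plot of set difference by length. What separates the sets was not tested.

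**Figure D4:**
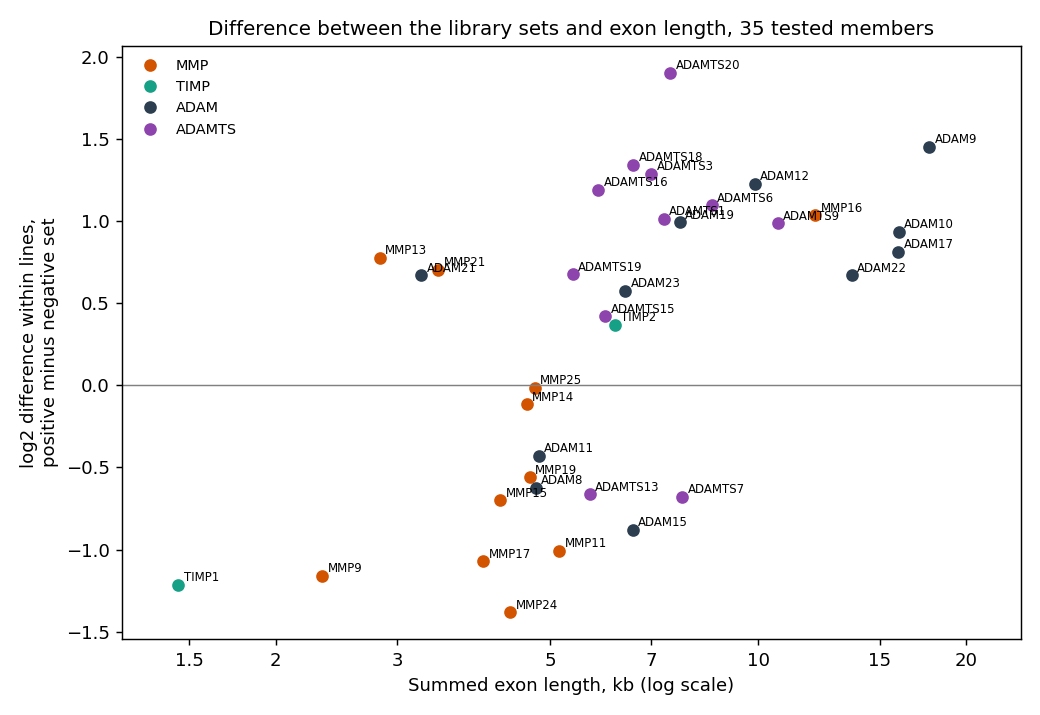
Log2 difference between positive and negative libraries within lines (vertical axis) against summed exon length in kb (horizontal log axis) for the 35 tested members, coloured by family. The rank correlation was 0.634, and its sign follows from how the sets were defined. TIMP1 lies at the lower left, MMP24 is lowest at -1.38, and ADAMTS20 is highest at 1.90.

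A list of 42 regulators and partners of these proteases (inhibitors, activating proprotein convertases, plasminogen system genes, ADAMTS-like proteins and tetraspanins) was read beside them. Of the 33 tested, 2 were called in α1, 2 in α2, 3 in α8, 2 in β5 and 3 in β10, beside 2.58%, 2.81%, 2.53%, 4.27% and 4.73% of all tested genes, with list medians between -0.38 in β5 and 0.00 in α1. ADAMTSL4, an ADAMTS-like matrix protein without protease activity, was called lower in each of the 5 lines, the log2 fold change lying between -2.39 in β5 and -1.58 in α2. Its control libraries had 5.94, 6.68, 18.0 and 6.04 CPM, and without control 3 it was called in α1, α8 and β5 (-1.53, -1.60 and -1.83). The call in β10 was also lost with the disputed library there (-1.34). PCSK5, a proprotein convertase, had 0.253 to 0.575 CPM in control, 1.52 to 4.27 in the Δ133p53α lines and at most 0.299 in the Δ133p53β lines, where β10 held at most 1 read. No Δ133p53α library overlapped a control or Δ133p53β library. The Δ133p53β mean differed from the Δ133p53α mean by -5.21 ± 0.38 (SE, adjusted p = 2.65e-08) on the log2 scale. THSD4, an ADAMTS-like protein, was called lower in α8, β5 and β10, and all 3 calls were lost without control 3, which had 34.3 CPM against 5.41 to 8.72 in the other control libraries. With the set as a term its call in β10 was lost as well (-1.36, adjusted p = 0.0535). SERPINE2, an inhibitor of plasminogen activators, was called among the clones (adjusted p = 0.0039), with 8.45 to 23.2 CPM in α2 and 2.28 to 5.64 in β10.

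A list of 31 proteins known to be shed or cleaved by these proteases was read in the same way. Of the 23 tested, 1 was called in α1, 2 in α2, 3 in α8, 4 in β5 and 4 in β10, beside the same shares of all genes. All these calls were lower, as were 59.7% to 69.3% of all calls in the 5 lines, with list medians from -0.62 in β10 to 0.07 in α1. NOTCH3, a receptor cleaved by ADAM10, had 8.09, 5.36, 26.0 and 5.03 CPM in control and at most 3.25 in the 5 lines. The groups did not overlap in any line, and NOTCH3 was called in all 5, from -3.50 ± 0.49 (SE) in β10 to -2.41 ± 0.46 in α8 on the log2 scale. Without control 3 it remained called in all 5, between -2.61 and -1.53. L1CAM, a neural adhesion molecule shed by ADAM10, had 0.468 to 2.02 CPM in control and was called lower in α2, α8, β5 and β10. Without control 3 its calls in α2 (adjusted p = 0.201) and β5 (adjusted p = 0.0721) were lost. It was also called among the clones (adjusted p = 0.0423).

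The other substrates named here were called lower in single lines or in the Δ133p53β lines. JAG1, a Notch ligand, was called in β5 and β10, at -1.86 ± 0.50 (SE) and -2.16 ± 0.45 (adjusted p = 0.0224 and 0.00367). Its control libraries had 4.45 to 11.2 CPM and its β libraries 0.893 to 2.98, with no overlap. TNFRSF1B, a tumor necrosis factor receptor shed by ADAM17, had 0.676 to 2.02 CPM in control, at most 2 reads in a β5 library and at most 3 in a β10 library. It was called lower in β5 (adjusted p = 0.0219), in β10 (adjusted p = 0.0123) and in β against α (adjusted p = 0.0199). Without control 3 the β5 calls of JAG1 (adjusted p = 0.0712) and TNFRSF1B (adjusted p = 0.0576) were lost. The β5 call of JAG1 was also lost with the set as a term (-1.38). For TNFRSF1B the call in β against α was lost with the disputed library in β5 (adjusted p = 0.0698) or β10 (adjusted p = 0.0598), and the call in β5 with it in β5 (adjusted p = 0.0749). SDC1, the cell surface proteoglycan syndecan-1, was called in α8 at -1.77 ± 0.30 (adjusted p = 0.00088), with 18.8 to 29.3 CPM in control and 4.72 to 10.8 in α8. ADAM10 and ADAM17, the sheddases of NOTCH3, L1CAM and TNFRSF1B, were not called in any of these lines.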

How the data were processed

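Poly(A) RNA from H1299 vector control cells and 5 clonal lines was sequenced with a dUTP protocol that keeps strand. Per the study's methods and labels, the authors trimmed reads with Cutadapt, aligned them to GRCh38 (hg38) with HISAT2 and used featureCounts with an Ensembl annotation for counting. The authors deposited the counts per gene symbol without normalization, 1 column per library. The strand setting and the treatment of reads matching several places are not given in the sources used here. A row without a gene name held 0 reads and was left out. The tested genes held at least 99.883% of the reads of each library.

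Counts were analysed in R 4.3.3 with edgeR 4.0.16: TMM scaling, the filterByExpr filter by line (18295 genes kept), and a single quasi-likelihood fit of 6 groups over 23 libraries with 17 residual degrees of freedom. P-values were adjusted by Benjamini-Hochberg over all tested genes in each comparison. CPM were computed from the counts and TMM-scaled library sizes. A bound against a group with at most 3 reads in every library was computed from 3 reads per library, and bounds and floors cover counting error only, since reads without molecular identifiers are not independent molecules. The library of disputed clone was left out of the main fit and counted in β5 or β10 as alternatives. Exon lengths and coordinates came from GENCODE v44 on GRCh38, which matched 68 of the 69 symbols, and promoters from RefSeq. The procedure was also run on simulated counts with known changes, which held no difference between the library sets.

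The genes named are those called in any comparison, the 3 with the highest level per kb in each family (all 4 TIMPs), and MMP1, MMP2, MMP9, MMP14, MMP15, ADAM9, ADAM10, ADAM15, ADAM17 and ADAMTS1, with the related genes called in any comparison. MMP3, MMP7, MMP8, MMP10, MMP11, MMP12, MMP13, MMP19, MMP20, MMP27, ADAM23, ADAM32, ADAMTS5, ADAMTS12, ADAMTS16, ADAMTS17, ADAMTS20 and the members listed for having 0 or few reads were named after their values were seen. The genes, lists and tests were chosen with earlier results of these data known. The alternatives were a mean of 1 CPM as the filter, no filter, scaling by RLE, DESeq2 1.42.0, limma 3.58.1 (voom), the adjusted p alone, fits of only the groups compared, a replicate block, the library set as a term, each set alone, and leaving out each library. The transgene's own reads are not reported here.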

Additional observations from a re-analysis of the deposited data

Results flagged for a closer look

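In groups of 4 libraries, 11 of 120 tested cases had a library far from the other 3, where chance flags about 1 in 20 groups. In 9 of the 11 that library was the only one of its line in its library set. These were control 1 for ADAM15 (63.7 CPM against 43.6 to 46.1) and MMP24 (24.9 against 6.38 to 7.56), α2 1 for ADAM15 (153 against 53.6 to 66.0) and MMP17 (12.7 against 3.74 to 3.95), and α1 1 for ADAM17 (63.2 against 30.1 to 34.6) and ADAMTS3 (12.3 against 2.57 to 3.91). The other 3 of the 9 were α8 2 for MMP17 (6.31 against 2.47 to 3.08), MMP2 (1.58 against 0.0417 to 0.170) and MMP9 (3.11 against 0.633 to 0.765). The 2 cases outside this pattern were the third library of β10 for MMP9, at 7.78 CPM against 0.706 to 1.69, and the second library of α1 for ADAMTS15, at 1.12 CPM against 0.869 to 0.908.

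The Δ133p53β mean differed from the Δ133p53α mean for 4 members in the direct comparison, which cannot tell isoform from clone. For ADAMTS1 the mean was 0.109 CPM in α2, 0.999 in α1 and 0.946 in α8, beside 1.46 in β5 and 2.34 in β10. The log2 difference was 1.94 for ADAMTS1, -2.40 for ADAMTS13, -1.53 for ADAMTS15 and -3.49 for ADAMTS9, by edgeR's quasi-likelihood test. The value of ADAMTS9 is set against β libraries of at most 2 reads, so its size depends on the treatment of 0, and the gene entered the test only through α1 1, α1 2 and α8 1.

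In the library of disputed clone, ADAMTS17 had 0.874 CPM (17 reads), above each of the 23 other libraries, which held between 0 and 9 reads, and above the control libraries at 0 to 3. ADAMTS17 was found by a search over the 34 members with more than 3 reads in that library. Any library can be the highest for some of so many genes by chance.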

How the results depend on the processing

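Against the main counts of called members (2 in α1, 2 in α2, 3 in α8, 4 in β5, 6 in β10, 4 and 6 in the means of Δ133p53α and Δ133p53β, 4 between the isoforms and 4 among the clones), RLE size factors moved no count by over 1.5 times. No log2 fold change of a called member changed sign under any setting. A filter at a mean of 1 CPM, which tests fewer members, gave 1 in α1, 1 in α2, 3 in β10, 3 in the Δ133p53β mean and 2 between the isoforms. No filter gave 7 in the Δ133p53α mean and 10 in the Δ133p53β mean. DESeq2 gave 5 in α1, and limma voom 1 in α2. The adjusted p alone gave 10 in the Δ133p53β mean and 7 between the isoforms. Fits of only the groups compared gave 1 in α1, 1 in α2, 0 in α8 and 3 in β10. The set as a term gave 5 in α1, 5 in α2, 5 in α8 and 9 in β5. The disputed library gave 0 in α1 when counted in β5 and 1 when counted in β10. Chosen after seeing the data, the positive set alone, in which α1, β5 and β10 have 1 library each that is assumed to vary like the rest, gave 0 in α1, 5 in α2, 5 in α8, 1 in β5, 2 in β10, 0 between the isoforms and 0 among the clones. The negative set alone, with 1 library each in control, α2 and α8, gave 0 in α1, 0 in α2, 0 in α8, 1 in β5, 1 in β10, 0 and 2 in the means of Δ133p53α and Δ133p53β, and 0 among the clones. Where not stated, the cause was not tested.

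Leaving out 1 library gave 0 to 6 calls in α1, 1 to 3 in α2, 0 to 4 in α8, 3 to 6 in β5, 3 to 6 in β10, 1 to 5 in the Δ133p53α mean, 5 to 6 in the Δ133p53β mean, 2 to 4 between the isoforms and 2 to 5 among the clones. The calls of ADAM11, ADAM8 and ADAMTS13 in the Δ133p53β mean and of ADAMTS1 in α2 held in all 23 omissions. The ADAMTS18 call in the Δ133p53β mean held as well, as a description, since no control library reached the minimum of the filter. Of these, ADAM11 and ADAMTS13 held under all 13 other settings as well, and the other 3 were lost in the negative set alone. Deviations from the line mean of libraries with the same replicate number correlated between -0.880 and 0.889, above 0.1 in 23 of 55 pairs. These deviations still hold the difference between the library sets, and a replicate number mixes the sets. The check therefore cannot decide whether replicate numbers pair the samples. The replicate block gave 2, 2, 2, 4 and 5 calls in the lines, 3 and 5 in the means, 3 between the isoforms and 3 among the clones.

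Genes with fewer than about 30 reads per library, among them ADAMTS7, ADAMTS9, ADAMTS15 and ADAMTS18, are limited by depth. By the call rule, no gene at any depth could be called at a fold change below 1.5 in log2. Each isoform is represented by 3 or 2 clones, and all lines are set against 1 control line.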
